A study of Mus musculus with 12 samples.

Results

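The genes described here encode the subunits of the constitutive proteasome, the cell's main machine for degrading proteins tagged with ubiquitin. They were taken as every protein-coding gene of the deposited expression table whose symbol is Psma, Psmb, Psmc or Psmd followed by a number, without the immunoproteasome genes Psmb8, Psmb9 and Psmb10, which gave 36 of 49585 genes. They were followed in nuclear RNA of microglia from the spinal cord of C57BL/6 mice after spinal cord injury. The 4 conditions were compared, with 3 libraries each: sham surgery (replicates 2, 3 and 4, which carry a 7-day label), and injury examined after 3 days (replicates 1, 2 and 3), 7 days (replicates 1, 3 and 4) or 14 days (replicates 1, 2 and 3). A library holds the pooled cord of 3 mice, taken at and around the injured level, from which nuclei bearing green fluorescent protein (GFP) were drawn out with an antibody and magnetic beads. The promoter that drove the GFP and the age of the mice are not stated in the labels. Values in each list below follow the replicate order just given.

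The proteasome is built from a barrel, the 20S core, and a cap, the 19S regulator. The core stacks rings of alpha subunits, which control entry, around rings of beta subunits, some of which cut peptide bonds. The cap recognises ubiquitin chains, removes them and uses a ring of ATPases to unfold the substrate and feed it into the core. Subunit genes are expressed in nearly all cells and are known to be raised together by the transcription factor NFE2L1 when proteasome activity falls short. In microglia and other immune cells, interferon can exchange the proteolytic beta subunits for the immunoproteasome subunits.

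Of the 36 genes, 31 encode subunits of the common 26S particle and 5 do not. Psma8 and Psmb11 encode variants of core subunits that are known from testis and from thymic cortex. Psmd5, Psmd9 and Psmd10 encode chaperones that help to assemble the 19S cap and leave the finished particle. Psmb11 was close to absent, with 0 to 2 reads a library, and did not pass the filter on low counts, so 35 of the 36 genes were tested. Psma8 passed with 1.92 to 6.08 CPM (counts scaled to library size, with edgeR's TMM factors). The 2 cap subunits whose symbols fall outside the rule, Adrm1 and Shfm1 (also called Sem1), are given with the pathway genes.

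Total counts were 4003480 to 10670804 a library, and log2 CPM correlated at 0.880 to 0.979 within groups. All 14 microglial markers were found in every library, and they summed to 5620.3 to 7026 CPM in sham libraries, 3711 to 4331 after 3 days, 4986 to 6248 after 7 days and 4299 to 5545 after 14 days. Tmem119 had 87.5 to 233 CPM over all libraries, while the homeostatic receptor gene P2ry12 had 543 ± 187 CPM in the sham libraries, then 124 ± 24.4 3 days after injury, 268 ± 119 after 7 days and 186 ± 42.7 after 14 days (SD, n = 3 in each group). The part of these marker differences in the results on the proteasome genes was not tested. Markers of other cells were also present and differed between groups. The 10 markers of monocyte-derived macrophages, 7 of them with a mean above 1 CPM, summed to 133 to 188 CPM in sham libraries, 1274 to 1876 after 3 days, 273 to 628 after 7 days and 727 to 854 at 14 days, and 15 mitosis genes summed to 170.1 to 496, 2184 to 2424, 390.4 to 480.1 and 307 to 340.4 CPM. The 10 fibroblast and pericyte markers summed to 67.4 to 529, 382 to 955, 67.5 to 167 and 620.1 to 732 CPM in the same order. The 10 endothelial markers summed to 42.7 to 169, 286 to 633, 54.7 to 71.3 and 371 to 380 CPM. Neuron markers summed to 1655 to 3051, 710 to 899, 896 to 1230 and 1160 to 1702 CPM. For astrocyte markers the sums were 608 to 5287, 1403 to 2291, 1603 to 2025 and 2303 to 2732 CPM. For oligodendrocyte markers they were 932 to 1858, 1025 to 1473, 653 to 986 and 1005 to 1471 CPM. No marker of these lists was at 0 in every library. Their part in the results below was not tested, and fewer cells of a type cannot be told apart from less RNA per cell.

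Sham replicate 4 stood apart in the proteasome genes. It was the lowest of the 12 libraries for 17 of the 35 genes, while 21.7% of all tested genes were lowest there. The median deviation of the 35 genes from their own 12-library mean was -0.44 on the log2 scale in that library and -0.14 to 0.33 in the other 11. Sham replicate 2 differed the other way, with a median deviation of 0.31. It was the highest library for 10 of the 35 genes, beside 11.5% of all tested genes. The sum of 10 astrocyte markers was 5287 CPM in sham replicate 4, while sham replicate 2 had 608 and sham replicate 3 had 1500.3. The sum of fibroblast and pericyte markers was 529 CPM in sham replicate 4, and 67.4 and 82.8 in sham replicates 2 and 3. The 80 ribosomal protein genes were added for comparison after the data were seen. They were low in sham replicate 4, with a sum of 853 CPM against 2000.1 and 1534 in sham replicates 2 and 3. They were highest at 7 days (2338, 2449.6 and 2136). The counts of called genes, the medians and the single genes discussed against sham are therefore also given without sham replicate 4. This library was singled out by the values of the same genes. Its removal raises the sham level of genes that were low there, lowers that of genes that were high there, such as Psmd1, and changes their spread. The p-values and counts without it therefore only describe how far the results depend on it, and are no further support for a difference. The counts of groups that do not overlap and the DESeq2 calls are of all 12 libraries.

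**Figure D1:**
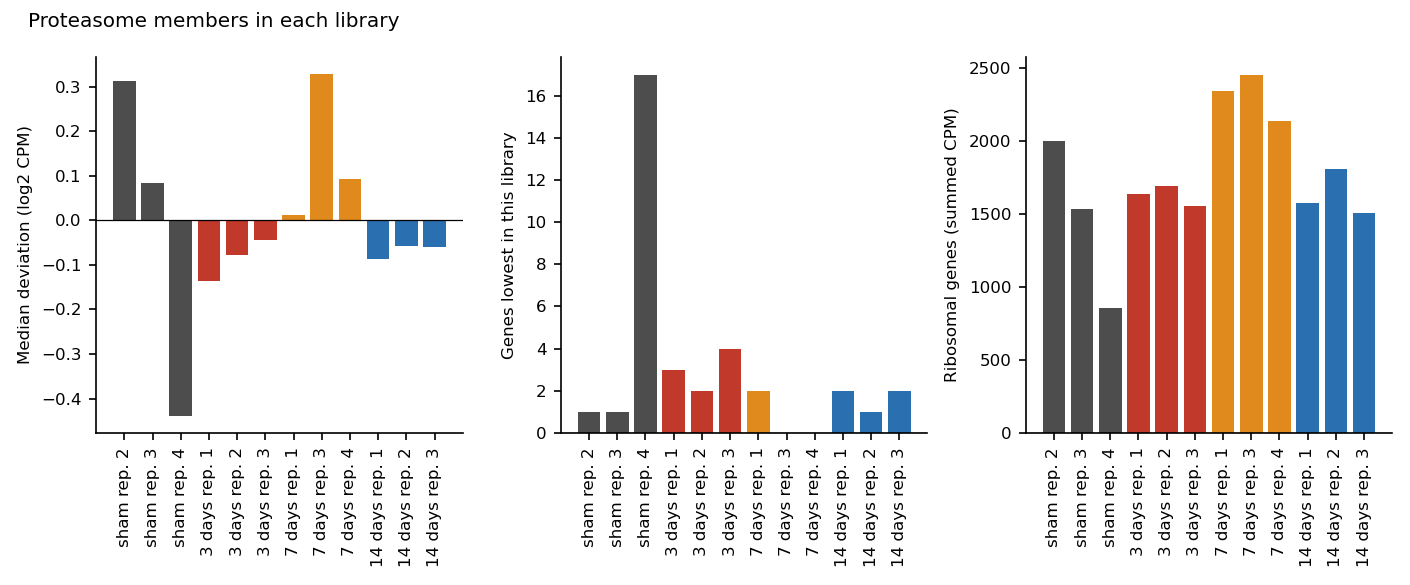
Bars give, for each of the 12 libraries, the median deviation of the 35 tested proteasome genes from their 12-library means (log2 CPM, left), how many of the 35 were lowest of all libraries there (middle) and the summed CPM of 80 ribosomal protein genes (right). Sham replicate 4 holds 17 of the 35 lowest values and the lowest ribosomal sum, 853 CPM.

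Promoter sequences are shown for 4 of the genes, since the subunits are known as a co-regulated set. Psmc4 and Psmd8 were the genes with the largest difference between 7 and 14 days and between 7 days and sham, and Psmb5 and Psmb6 encode proteolytic subunits, so this choice was made after values were seen. Each line gives 120 bases before and 30 bases from the RefSeq start on GRCm38.p6, 5′ to 3′ on the gene's strand. Psmc4 (minus strand) lies at chr7:28050063-28050212, Psmd8 (minus) at chr7:29180644-29180793, Psmb6 (plus) at chr11:70525237-70525386 and Psmb5 (minus) at chr14:54617966-54618115. Capitals mark CGGAAGT, one form of the ETS factor motif, in Psmc4 and Psmd8, where it stands on the opposite strand and reads ACTTCCG. In Psmb6 and Psmb5 they mark TGACNNNGC, the antioxidant response element core bound by NFE2L1 with small Maf proteins.
Psmc4: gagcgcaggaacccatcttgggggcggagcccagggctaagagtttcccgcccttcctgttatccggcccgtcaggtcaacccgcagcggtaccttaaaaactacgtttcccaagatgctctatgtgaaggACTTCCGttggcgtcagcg
Psmd8: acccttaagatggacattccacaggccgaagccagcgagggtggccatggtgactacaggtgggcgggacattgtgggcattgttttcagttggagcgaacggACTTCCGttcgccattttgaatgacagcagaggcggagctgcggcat
Psmb6: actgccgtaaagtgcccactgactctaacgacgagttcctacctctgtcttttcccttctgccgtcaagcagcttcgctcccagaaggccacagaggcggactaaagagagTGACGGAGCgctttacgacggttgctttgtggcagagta
Psmb5: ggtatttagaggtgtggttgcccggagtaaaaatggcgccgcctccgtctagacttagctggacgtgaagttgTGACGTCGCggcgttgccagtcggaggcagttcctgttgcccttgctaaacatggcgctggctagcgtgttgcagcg

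The full windows ran from 250 bases before to 50 bases from the start and were matched for 29 of the 36 genes, in 31 windows. Psma8, Psmb1, Psmb2, Psmb7, Psmc3, Psmd3 and Psmd7 were not matched. TGACNNNGC on either strand was in 5 windows, those of Psmb5, Psmb6, Psmc6, Psmd9 and Psmd12, or 16.1% of 31, beside 12.4% of all 32851 windows and 14.2% of the 14629 windows of genes with enough counts for a test. CCAAT on either strand was in 38.7%, beside 37.4% of all windows and 37.3% of those of tested genes. TATAAA on the plus strand was in 3 windows (Psmb4, Psmd1 and Psmd6), or 9.68%, beside 8.32% and 4.50%. CGGAAGT on either strand, searched only after the sequences had been seen, was in 12 windows of 11 genes (Psma4, Psma6, Psmb4, Psmc1, Psmc2, Psmc4, Psmd6, Psmd8, Psmd12, Psmd13 and Psmd14). That is 38.7% of 31 windows, beside 6.42% of all windows and 11.3% of those of tested genes. None of the 4 motifs contains another, and a match describes letters only.

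Levels between genes are compared in RPKM (reads scaled to gene length and library total) as deposited by the authors. Leaving out Psma8 and Psmb11, the 34 genes had 12-library means of 1.85 to 33.5 RPKM with a median of 12.3, from the ATPase gene Psmc5 at the top to Psmd9, an assembly chaperone, at the bottom. All levels are of nuclear RNA after amplification.

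The alpha ring genes Psma1 to Psma7 ranged from Psma5 to Psma4. Psma4 was at 28.0, 25.2 and 24.9 RPKM in the sham libraries, 21.4, 26.7 and 25.5 at 3 days, 22.9, 30.9 and 30.0 at 7 days and 29.3, 25.1 and 24.2 at 14 days. Psma5 was at 9.32, 11.0 and 3.97 RPKM in the sham libraries, 5.40, 6.30 and 6.60 at 3 days, 6.90, 8.92 and 11.5 at 7 days and 9.83, 10.1 and 9.57 at 14 days. The lowest Psma4 library exceeded the highest Psma5 library, while sham replicate 4 was the lowest for Psma5 but not for Psma4. Psma2 followed Psma4 with a mean of 23.4 RPKM, less than 1 SD below it, then Psma6 with 17.0, and Psma3, Psma1 and Psma7 lay close together at 11.5, 11.0 and 9.51, within each other's SD over the 12 libraries.

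Among the beta ring genes, Psmb4, a structural subunit, was highest and Psmb3, also structural, lowest. Psmb4 was at 18.9, 14.4 and 9.47 RPKM in the sham libraries, 12.2, 12.9 and 10.7 at 3 days, 17.9, 14.2 and 21.3 at 7 days and 13.9, 14.3 and 17.2 at 14 days. Psmb3 was at 4.43, 3.74 and 2.17 RPKM in the sham libraries, 4.60, 2.63 and 3.79 at 3 days, 5.94, 4.91 and 3.91 at 7 days and 3.65, 4.20 and 4.17 at 14 days. The 2 genes did not overlap in any library. Psmb6 (14.1 RPKM), Psmb1 (13.9), Psmb2 (13.2) and Psmb5 (11.4) were within 1 SD of Psmb4 in mean level, and Psmb7 had a mean of 5.45. The variants were lower still: Psma8 had a mean of 2.10 RPKM and Psmb11 one of 0.0175.

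The 6 ATPase genes Psmc1 to Psmc6 encode the ring that unfolds substrates. Psmc5 was at 30.9, 42.0 and 17.7 RPKM in the sham libraries, 30.6, 34.5 and 29.8 at 3 days, 42.2, 31.8 and 49.2 at 7 days and 30.2, 33.4 and 29.4 at 14 days. Psmc2 was at 12.2, 10.0 and 8.64 RPKM in the sham libraries, 9.01, 7.94 and 7.82 at 3 days, 9.17, 11.8 and 10.7 at 7 days and 10.9, 9.90 and 10.6 at 14 days. Every Psmc5 library lay above every Psmc2 library. Between them stood Psmc1 (19.9 RPKM), Psmc6 (19.4), Psmc3 (14.5) and Psmc4 (13.3), and Psmc4 had the widest spread of the 6 relative to its mean, with 2.77 to 27.7 RPKM.

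The other base subunits are the scaffolds Psmd1 and Psmd2, which dock shuttle proteins and deubiquitinases, and the ubiquitin receptor Psmd4. Psmd1 was at 12.3, 13.2 and 15.3 RPKM in the sham libraries, 19.2, 17.0 and 19.1 at 3 days, 13.2, 11.9 and 15.4 at 7 days and 18.6, 18.1 and 17.6 at 14 days. Psmd4 was at 7.51, 6.91 and 2.67 RPKM in the sham libraries, 6.56, 6.09 and 6.61 at 3 days, 7.83, 4.79 and 8.12 at 7 days and 5.58, 6.00 and 4.50 at 14 days. Psmd2 had a mean of 9.88 RPKM. Psmd1 exceeded Psmd4 in all 12 libraries. Exons of Psmd1 overlap Gm21972 on the same strand and Htr2b on the opposite strand, and the strand setting of the counting is not stated in the labels, so its counts are uncertain. Psmb5 overlaps Mir686 on the same strand, and exons of genes on the opposite strand are overlapped by Psma4, Psma5, Psmb7, Psmc3, Psmd3, Psmd9 and Psmd13.

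The 8 lid genes include Psmd14, the deubiquitinase that cuts chains off at the entrance, and its partner Psmd7. Psmd12 was at 20.1, 26.6 and 25.3 RPKM in the sham libraries, 19.2, 21.0 and 22.4 at 3 days, 19.1, 20.2 and 21.4 at 7 days and 25.9, 26.2 and 22.8 at 14 days. Psmd13 was at 4.86, 6.04 and 2.59 RPKM in the sham libraries, 4.16, 2.96 and 4.19 at 3 days, 3.29, 5.16 and 4.30 at 7 days and 3.00, 4.03 and 4.16 at 14 days. These did not overlap in any library. Means for the others were 16.4 RPKM for Psmd6, 12.4 for Psmd7, 12.4 for Psmd11, 12.3 for Psmd14, 7.80 for Psmd8 and 4.73 for Psmd3. Of the assembly chaperones, Psmd5 was at 4.78, 5.30 and 5.32 RPKM in the sham libraries, 3.73, 3.93 and 4.37 at 3 days, 4.16, 4.36 and 4.97 at 7 days and 4.80, 4.18 and 4.31 at 14 days. Psmd9 was at 2.68, 1.80 and 2.07 RPKM in the sham libraries, 1.52, 1.27 and 1.20 at 3 days, 1.34, 1.56 and 2.38 at 7 days and 2.14, 2.19 and 2.07 at 14 days. Psmd10, the third chaperone, had a mean of 4.23 RPKM, within 1 SD of Psmd5, and was highest in sham replicate 4 at 7.14.

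**Figure D2:**
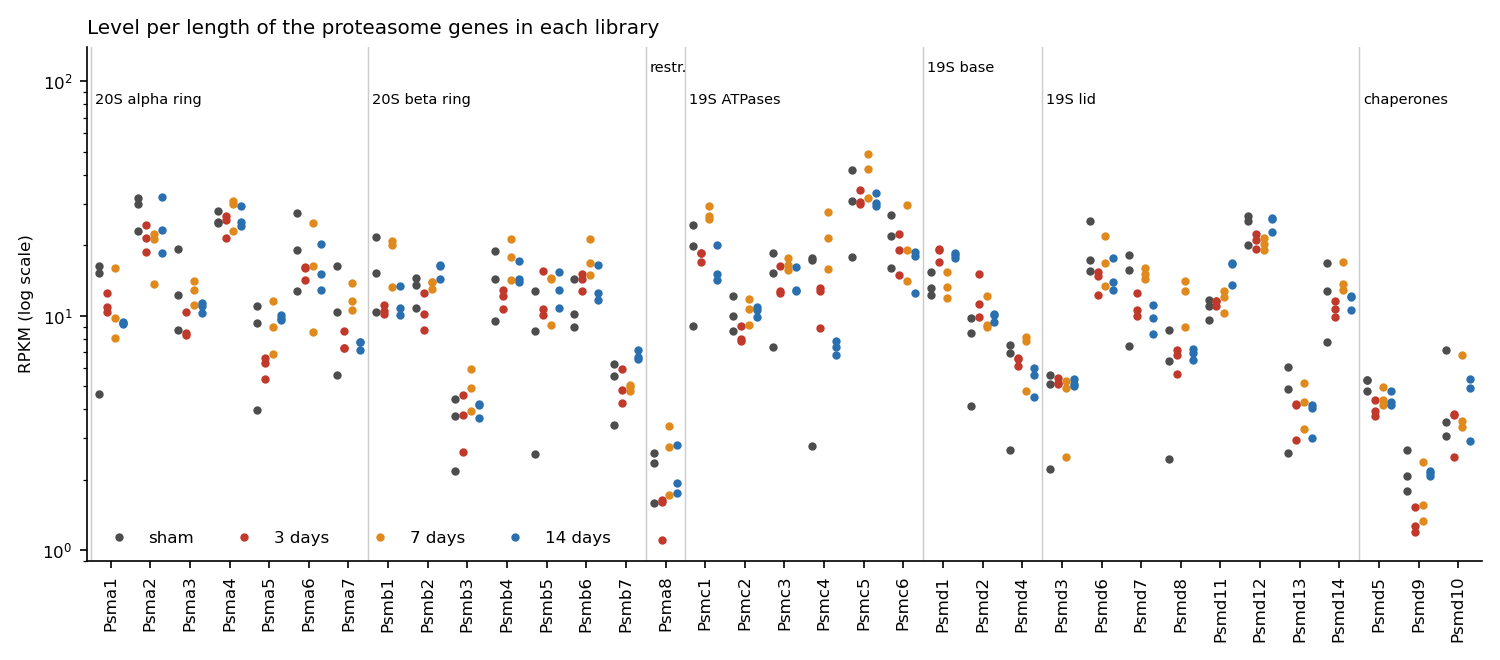
Each point is the RPKM of 1 gene in 1 library (log axis), coloured by group and ordered by role; Psmb11, at 0 in most libraries, is left out. Psmc5 is the highest and Psmd9 the lowest of the 34 genes other than Psma8, and single sham points far below the rest, as for Psmc4 and Psmb5, are sham replicate 4.

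The first question was whether proteasome genes differed from sham at 3 days. None of 35 genes passed the test (edgeR quasi-likelihood test, Benjamini-Hochberg adjusted p under 0.05 over all 18451 tested genes), while 20.0% of all tested genes did. At an unadjusted p under 0.05 there were 5 genes, 2 higher and 3 lower than sham, and DESeq2 called 1, Psmd9, beside 23.7% of all tested genes. The median log2 fold change of the 35 genes was -0.25, beside -0.03 over all tested genes, and 24 of 35 were at or below 0. It was -0.05 without sham replicate 2 and -0.34 without sham replicate 4. All 7 alpha ring genes and all 3 assembly chaperones had values below 0, and the 3 other base subunits Psmd1, Psmd2 and Psmd4 had values above 0.

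Psmd9, the chaperone, was at 20.7, 12.1 and 16.8 CPM in the sham libraries, 10.9, 9.25 and 8.93 at 3 days, 10.3, 11.98 and 16.7 at 7 days and 14.8, 15.0 and 14.3 at 14 days. All 3 libraries at 3 days lay below all sham libraries, and the log2 fold change was -0.78 ± 0.27 (SE; edgeR adjusted p = 0.0571). The value was -0.81 without sham replicate 4 (edgeR adjusted p = 0.0548), and the gene passed without sham replicate 3 (-0.99) and without 7-day replicate 4 (-0.80). Psmd2, the scaffold, was at 36.6, 36.8 and 18.8 CPM in the sham libraries, 39.4, 45.4 and 62.4 at 3 days, 39.0, 38.2 and 47.5 at 7 days and 36.3, 38.6 and 39.2 at 14 days. The 3-day libraries lay above the sham libraries, with a value of 0.67 ± 0.25 (edgeR adjusted p = 0.0733). The value was 0.39 without sham replicate 4 (edgeR adjusted p = 0.188) and 0.44 without 3-day replicate 3 (0.329), the libraries with its lowest and its highest level. Psmd2 was the 1 gene wholly above sham at 3 days, and Psma2, Psma8, Psmb1, Psmc2, Psmd5, Psmd6 and Psmd9 were wholly below, or 7 of 35; in all tested genes 18.7% were wholly above and 15.5% wholly below.

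Without sham replicate 4, 5 of the 35 genes passed at 3 days, beside 21.3% of the 19468 genes then tested. The core genes Psma3 (-0.86, edgeR adjusted p = 0.0121), Psma7 (-0.84, 0.0200) and Psmb1 (-0.84, 0.0462) and the lid gene Psmd7 (-0.64, 0.0383) were lower than in the 2 remaining sham libraries, and Psmd1 was higher (0.52, 0.0224). Psma3 was at 80.4, 44.3 and 38.1 CPM in the sham libraries, 40.1, 32.3 and 33.8 at 3 days, 45.9, 53.0 and 53.2 at 7 days and 42.0, 37.9 and 41.0 at 14 days. Its 3-day values lay below sham replicates 2 and 3, but 1 of them lay above sham replicate 4. With sham replicate 2 left out instead, 0 of the 35 genes passed at 3 days, while 3815 of all tested genes did.

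At 7 days against sham, 0 of 35 genes passed the edgeR test, beside 9.28% of all tested genes. An unadjusted p under 0.05 was found for 4, Psmb6, Psmc1 and Psmd8 higher and Psma2 lower, and DESeq2 called 2, Psmb6 (adjusted p = 0.0396) and Psmd8 (0.0315), beside 14.2% of all tested genes. The median log2 fold change was 0.11 and became -0.02 without sham replicate 4, so the sign of the median rested on that library. With it left out, 0 genes passed, 2 had an unadjusted p under 0.05, and 6.89% of all tested genes were called.

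Psmd8, a lid subunit that is added late in lid assembly, was at 28.3, 18.3 and 8.40 CPM in the sham libraries, 17.1, 22.0 and 21.3 at 3 days, 28.9, 41.4 and 41.5 at 7 days and 20.9, 20.1 and 18.9 at 14 days. The 7-day libraries lay above every other library of the series. Against sham its log2 fold change was 1.00 ± 0.32 with a 95% interval of 0.32 to 1.68 (edgeR adjusted p = 0.0622), and without sham replicate 4 it was 0.66 (edgeR adjusted p = 0.112). Without sham replicate 2 it passed, with 1.46 (edgeR adjusted p = 0.00691). Psmb6, Psmc1, Psmd2 and Psmd8 were wholly above sham at 7 days, or 4 of 35 beside 12.1% of all tested genes, and Psma2, Psmd5 and Psmd12 wholly below, or 3 of 35 beside 10.7%.

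At 14 days against sham, 0 of 35 genes passed edgeR, beside 9.82% of all tested genes. An unadjusted p under 0.05 was found for 3, Psmd11 higher and Psma7 and Psmd7 lower, and DESeq2 called 0, beside 13.5% of all tested genes. The median log2 fold change was -0.12, -0.02 without sham replicate 2 and -0.24 without sham replicate 4. Psmd11, a lid subunit, was at 74.9, 69.0 and 68.6 CPM in the sham libraries, 69.5, 74.0 and 75.8 at 3 days, 69.5, 81.4 and 78.4 at 7 days and 102, 81.6 and 101 at 14 days. Its 14-day libraries lay above all others, with a log2 fold change against sham of 0.42 ± 0.16 (edgeR adjusted p = 0.107), or 0.38 without sham replicate 4 (0.137). Psmb7 was also wholly above sham and Psmc6 and Psmd5 wholly below, or 2 of 35 in each direction beside 15.5% and 14.2% of all tested genes.

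Without sham replicate 4, 4 genes passed at 14 days, all lower than in the 2 remaining sham libraries, beside 14.3% of all tested genes. They were Psmc4 (-1.34, edgeR adjusted p = 0.00218), Psma7 (-0.95, 0.0152), Psmd7 (-0.89, 0.00986) and Psma1 (-0.85, 0.0323). Psma1 was at 48.1, 44.8 and 15.4 CPM in the sham libraries, 36.4, 32.2 and 31.5 at 3 days, 25.1, 50.2 and 27.8 at 7 days and 26.4, 25.7 and 26.3 at 14 days. Its 14-day values were nearly equal to each other and lay between sham replicate 4 and the other sham libraries. With sham replicate 2 left out instead, 0 of the 35 genes passed at 14 days, while 1851 of all tested genes did.

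**Figure D3:**
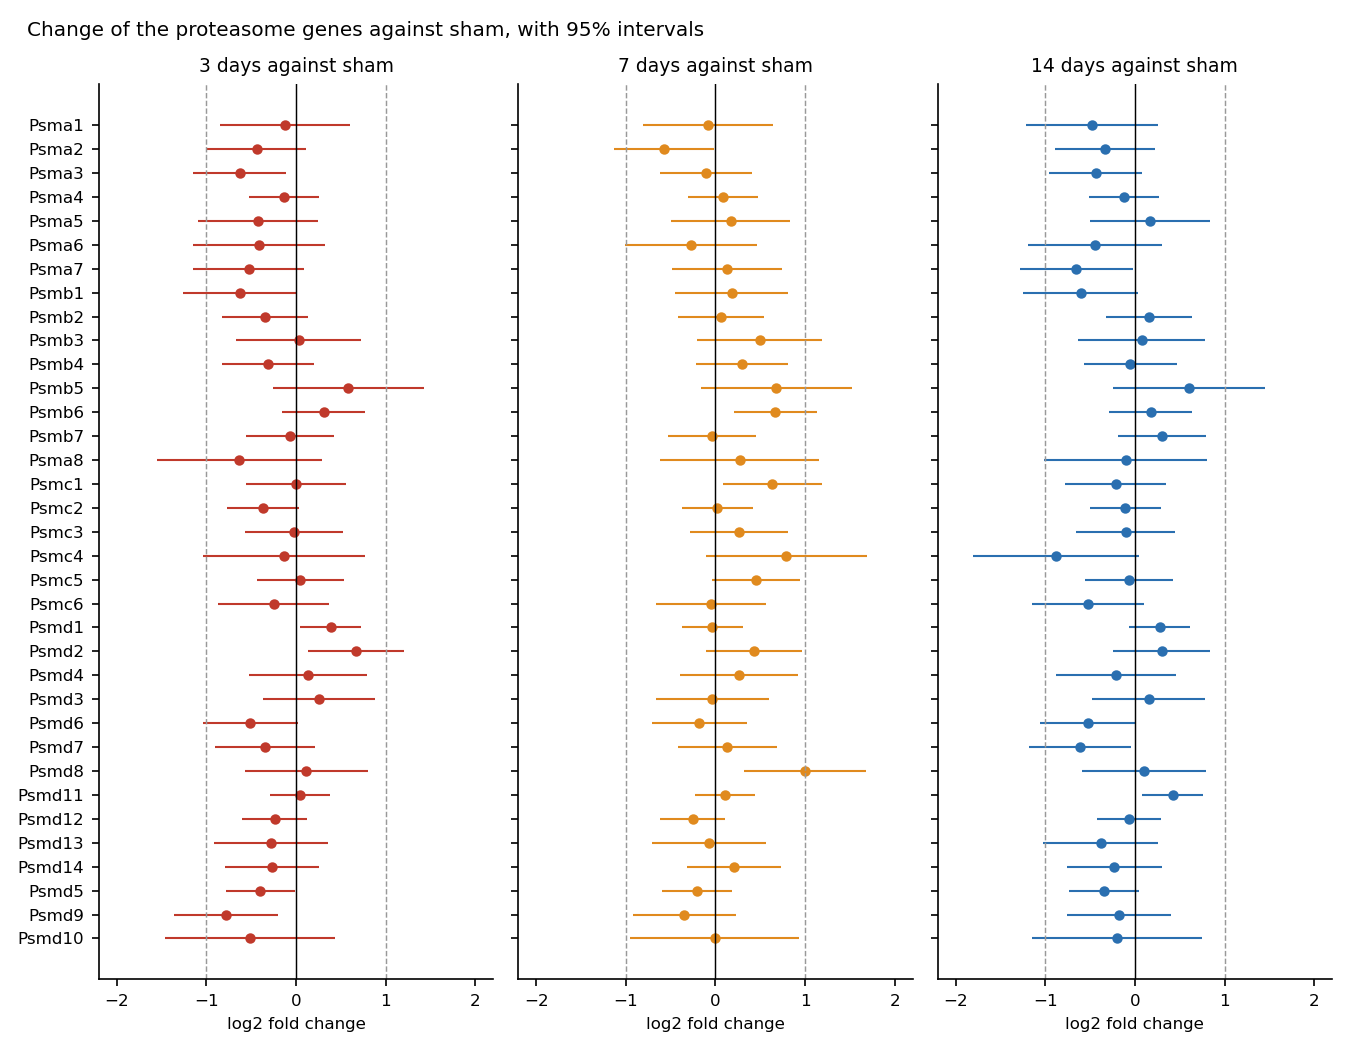
Points are log2 fold changes of the 35 tested genes against sham at 3, 7 and 14 days (edgeR, 12 libraries), bars are 95% intervals, and dashed lines mark a 2-fold change in either direction. Most intervals cross 0, and 23, 26 and 23 of 35 lie wholly within 2-fold at 3, 7 and 14 days.

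The precision of these comparisons can be read from the intervals. The standard error of a log2 fold change against sham at 3 days was 0.16 to 0.44, with a median of 0.26. The 95% interval lay wholly within a 2-fold change in either direction for 23 genes at 3 days, 26 at 7 days and 23 at 14 days. For the rest, Psmc4, Psmb5, Psma8 and Psmd10 among them, a 2-fold difference from sham was within the interval at 1 or more of the 3 times. No gene had a fitted difference beyond 2-fold at 3 or 14 days, and 1, Psmd8, was just past it at 7 days.

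The next question was whether the times after injury differed from each other. From 3 to 7 days 30 of 35 genes had a positive log2 fold change, with a median of 0.36, beside 50.5% of all tested genes above 0 and a median of 0.01. No gene passed the edgeR test, beside 13.4% of all tested genes, although 9 had an unadjusted p under 0.05, 8 higher at 7 days and 1, Psmd1, lower. DESeq2 called 2, Psmd8 (adjusted p = 0.0474) and Psmd1 (0.0479), beside 18.6% of all tested genes. The 3 libraries at 7 days lay wholly above those at 3 days for 15 genes (Psma3, Psma5, Psma7, Psma8, Psmb1, Psmb2, Psmb4, Psmb6, Psmc1, Psmc2, Psmc3, Psmc4, Psmd7, Psmd8 and Psmd14), or 15 of 35 beside 19.5% of all tested genes, and wholly below for 1, Psmd1, beside 20.2%.

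From 7 to 14 days the values lay the other way: 26 of 35 genes were at or below 0 with a median of -0.33. Over all tested genes 45.7% were above 0, with a median of -0.05. Without 7-day replicate 3 the median of the 35 genes was -0.13 from 7 to 14 days. From 3 to 7 days it was then 0.30, with 26 of 35 genes above 0. Wholly lower at 14 days were 11 of 35 genes (Psma3, Psma7, Psmb1, Psmb6, Psmc1, Psmc3, Psmc4, Psmc5, Psmd7, Psmd8 and Psmd14), beside 16.7% of all tested genes. Psmb7, Psmd1, Psmd11 and Psmd12 were wholly higher, or 4 of 35 beside 14.0%. Again 0 genes passed edgeR, beside 2.19% of all tested genes, 8 had an unadjusted p under 0.05, all lower at 14 days, and DESeq2 called 2, Psmc4 (adjusted p = 0.00763) and Psmc1 (0.0486), beside 5.90%. These comparisons share the 7-day libraries. The ribosomal protein genes were likewise highest at 7 days, as given above, and their part in the values of the proteasome genes was not tested.

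All 6 ATPase genes had positive values from 3 to 7 days and negative values from 7 to 14 days, with medians of 0.40 and -0.49. The 7 beta ring genes were all above 0 from 3 to 7 days (median 0.41). Of the 7 alpha ring genes 6 were above 0 (median 0.22), with Psma2 the exception, and of the 8 lid genes 6 were, with Psmd3 and Psmd12 the exceptions. Of the 3 other base subunits, Psmd1 and Psmd2 were below 0 from 3 to 7 days and Psmd4 above.

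Psmc4 had the largest fitted difference of the 35 genes in any of the 6 comparisons. It encodes an ATPase of the base and lies on chromosome 7 (GRCm38, 28041707 to 28050101, minus strand), and its promoter is the first printed above. It was at 40.0, 35.7 and 6.72 CPM in the sham libraries, 18.9, 28.4 and 28.3 at 3 days, 63.3, 36.3 and 45.1 at 7 days and 15.2, 15.9 and 14.0 at 14 days. The 14-day libraries were tightly grouped and below every 3-day and 7-day library, the 7-day libraries were above every 3-day library, and the sham libraries spanned from below all others to above all but 2 of them. In the test of any difference between the 4 groups it was the 1 gene of 35 that passed, with an edgeR adjusted p of 0.0456, beside 26.4% of all tested genes, and 7 of 35 had an unadjusted p under 0.05. That call was lost on leaving out any 1 of 10 of the 12 libraries (edgeR adjusted p 0.0505 to 0.158), the exceptions being sham replicates 2 and 4. Without sham replicate 4, 8 of 35 genes passed this test (Psma3, Psma7, Psmb1, Psmc1, Psmc4, Psmd1, Psmd7 and Psmd8), beside 34.4% of all tested genes, and DESeq2 called 3 with all 12 libraries (Psmc1, Psmc4 and Psmd8), beside 36.2%.

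Between 7 and 14 days the log2 fold change of Psmc4 was -1.68 ± 0.44 with a 95% interval of -2.60 to -0.75 (edgeR adjusted p = 0.0573). Sham replicate 4 is in neither of these groups, but it enters the shared estimate of spread, the filter, the scaling and the adjustment over all genes. Without that library the value was -1.68 ± 0.23 (edgeR adjusted p = 0.000483). In a fit of the 7-day and 14-day libraries alone it was -1.64 ± 0.22 (edgeR adjusted p = 0.00101). The difference between 7 and 3 days was 0.93 ± 0.42 (edgeR adjusted p = 0.150), and 0.94 without sham replicate 4 (edgeR adjusted p = 0.00669).

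Without sham replicate 4, 7 of 35 genes passed from 3 to 7 days, beside 23.3% of all tested genes: Psmb1, Psmb4, Psma7, Psmc1, Psmc4 and Psmd8 were higher at 7 days and Psmd1 lower. From 7 to 14 days 5 passed, beside 9.11%, all lower at 14 days: Psma7, Psmc1, Psmc4, Psmd7 and Psmd8. From 3 to 14 days 1 passed, Psmc4 (-0.74, edgeR adjusted p = 0.0430), beside 13.5%. In the fit of all 12 libraries the count of called genes was 0 in each of the 6 pairwise comparisons. The shares over all tested genes ran from 2.19% (7 to 14 days) to 20.0% (3 days against sham). At the lowest of these shares, 0 of 35 genes is near the share.

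Psmc1, the ATPase that helps to open the gate of the core, was at 32.2, 34.3 and 15.4 CPM in the sham libraries, 25.5, 28.2 and 28.7 at 3 days, 47.3, 41.7 and 39.0 at 7 days and 21.9, 28.8 and 20.5 at 14 days. Its 7-day libraries lay above all others, with a log2 fold change from 7 to 14 days of -0.85 ± 0.26 (edgeR adjusted p = 0.0987; 0.00733 without sham replicate 4). Psma7, an alpha ring subunit, was at 53.7, 29.7 and 19.3 CPM in the sham libraries, 22.1, 22.5 and 27.2 at 3 days, 34.4, 44.9 and 34.4 at 7 days and 22.6, 22.4 and 20.9 at 14 days. Its 7-day libraries lay above those at 3 and 14 days, with -0.78 ± 0.29 from 7 to 14 days (edgeR adjusted p = 0.168; 0.0333 without sham replicate 4). Psmb1, a structural beta subunit, was at 23.9, 14.6 and 12.04 CPM in the sham libraries, 11.4, 10.9 and 10.9 at 3 days, 22.8, 22.0 and 13.2 at 7 days and 9.95, 13.1 and 10.7 at 14 days, and its 3-day values were within 1 CPM of each other. Psmd7, the partner of the deubiquitinase, was at 43.7, 32.9 and 18.8 CPM in the sham libraries, 22.3, 24.0 and 29.1 at 3 days, 34.4, 38.2 and 32.9 at 7 days and 21.1, 23.6 and 18.0 at 14 days. In Psma7, Psmb1 and Psmd7 the sham libraries spread over most of the range of the injured libraries.

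Psmd1 ran the other way. It was at 95.4, 89.2 and 125 CPM in the sham libraries, 138, 124 and 142 at 3 days, 102, 91.9 and 108 at 7 days and 128, 124 and 121 at 14 days. The 7-day libraries lay below all 3-day and all 14-day libraries, and the log2 fold change from 3 to 7 days was -0.42 ± 0.16 (edgeR adjusted p = 0.0909; 0.0376 without sham replicate 4). Unlike Psmc4 or Psmb5 it was not low in sham replicate 4, which held its highest sham value. Its exons overlap other genes, as given above.

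**Figure D4:**
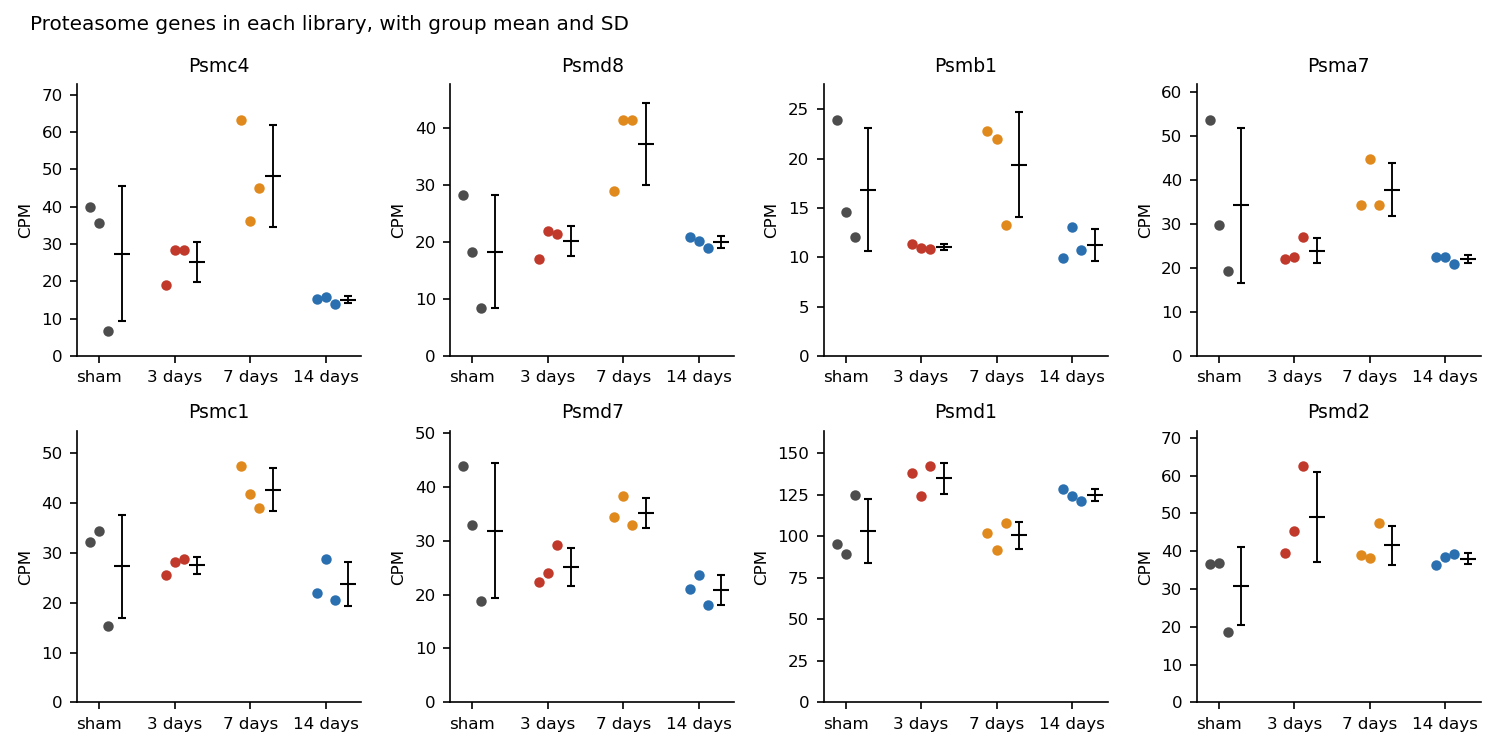
Points are TMM-scaled CPM of 8 proteasome genes in each library of the 4 groups, and the bar beside each group is the mean with 1 SD (n = 3). The 7-day points lie above the 3-day and 14-day points in Psmc4, Psmd8, Psma7, Psmc1, Psmd7 and, by a small margin, Psmb1. They lie below them in Psmd1, and the sham points spread more widely than the 14-day points in all 8 genes.

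From 3 to 14 days 0 of 35 genes passed edgeR, beside 7.31% of all tested genes, with 3 at an unadjusted p under 0.05 (Psmb2, Psmd9 and Psmd11, all higher at 14 days) and 0 called by DESeq2, beside 11.0%. The median log2 fold change was 0.01. There were 8 genes wholly above, beside 20.1% of all tested genes, and 4 wholly below (Psma1, Psmc4, Psmd2 and Psmd4), beside 23.0%. The 95% interval lay within 2-fold for 28 of 35 genes, the most of the 6 comparisons.

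The proteolytic subunits decide which bonds the core cuts. Psmb5, with chymotrypsin-like activity, was at 8.02, 10.3 and 2.52 CPM in the sham libraries, 8.66, 13.5 and 9.51 at 3 days, 8.38, 13.2 and 12.2 at 7 days and 10.7, 12.6 and 8.91 at 14 days. The lowest value, in sham replicate 4, rests on 9 reads, while sham replicate 2 lay just below and sham replicate 3 within the range of the injured libraries. Psmb6, with caspase-like activity, was at 18.0, 24.9 and 21.3 CPM in the sham libraries, 26.6, 28.4 and 24.5 at 3 days, 33.3, 29.6 and 38.6 at 7 days and 20.8, 22.2 and 29.4 at 14 days. Its 7-day libraries lay above all sham libraries, and the log2 fold change was 0.67 ± 0.22 (95% interval 0.20 to 1.13, edgeR adjusted p = 0.0669; 0.0958 without sham replicate 4). Psmb7, with trypsin-like activity, was at 20.3, 19.9 and 13.2 CPM in the sham libraries, 20.0, 16.5 and 14.9 at 3 days, 18.0, 17.4 and 16.8 at 7 days and 23.2, 21.0 and 21.8 at 14 days. Its 14-day libraries lay above all others, and its lowest value was again in sham replicate 4. The 3 subunits therefore did not share 1 order of groups.

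**Figure D5:**
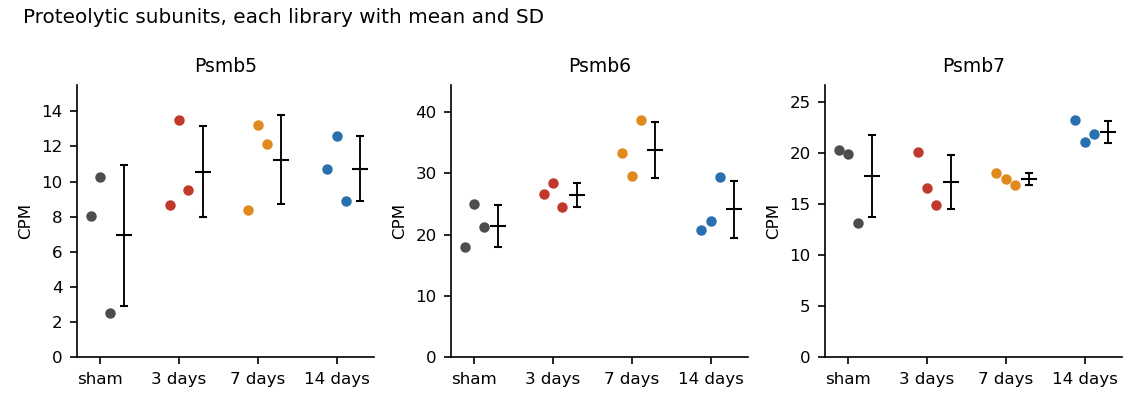
Points are TMM-scaled CPM of the genes of the 3 proteolytic subunits in each library, with the group mean and 1 SD (n = 3) beside them. Psmb6 is highest at 7 days (33.8 ± 4.55 CPM) and Psmb7 at 14 days (22.0 ± 1.10 CPM), and none of the 3 passed a pairwise edgeR test.

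Summed over the core genes, with Psma8 and Psmb11, RPKM was 191 ± 41.8 (SD, n = 3) with sham surgery, 165 ± 10.4 at 3 days, 201 ± 23.9 at 7 days and 186 ± 11.3 at 14 days. Summed over the cap genes and their chaperones it was 239.7 ± 59.5, 231 ± 5.55, 279 ± 14.2 and 233 ± 7.12. The sham SD came from sham replicate 4, with 144 and 171 RPKM against 222 and 274 in replicate 2 and 208 and 274 in replicate 3. In the cap sum, the 3 libraries at 7 days (265, 277 and 294) lay above all 6 at 3 and 14 days. The ratio of cap to core sums was 1.25 ± 0.0643 with sham surgery, 1.41 ± 0.115 at 3 days, 1.397 ± 0.130 at 7 days and 1.25 ± 0.0626 at 14 days, and the libraries of each group overlapped those of every other group. The sums and ratios are descriptions, with no test.

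Across the 12 libraries, log2 CPM of pairs of genes correlated only loosely. The median Pearson correlation was 0.313 over 91 pairs of core genes, 0.252 over 136 pairs of cap genes and 0.321 over 238 pairs between them. Without sham replicate 4 the medians were 0.241, 0.136 and 0.178. All pairs share the same libraries and scaling factors, so these values are descriptions.

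The wider pathway was taken as 53 further genes, of which 52 were matched and tested (Paaf1 was not matched). Against sham, 4 of the 52 rose and 6 fell at 3 days, 5 rose and 0 fell at 7 days, and 3 rose and 2 fell at 14 days. Of all tested genes, 20.0%, 9.28% and 9.82% were called at these times. Between times, 3 of the 52 rose and 0 fell from 3 to 7 days, 0 rose and 2 fell from 3 to 14 days, and 0 rose and 1 fell from 7 to 14 days. Of all tested genes, 13.4%, 7.31% and 2.19% were called in these comparisons. The counts of the pathway genes were thus near or below the share over all genes. At 3 days, the time with the most calls, the monocyte-derived macrophage and mitosis markers were at their highest sums. Their part in the calls was not tested.

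Among the 9 transcriptional regulators, 3 rose and 1 fell at 3 days, 4 rose at 7 days and 2 rose at 14 days. Nfe2l1, the factor that drives proteasome genes, was at 60.2, 60.6 and 48.7 CPM in the sham libraries, 83.8, 85.3 and 96.2 at 3 days, 56.1, 69.4 and 79.4 at 7 days and 98.3, 86.3 and 89.8 at 14 days. It rose at 3 days (log2 fold change 0.64 ± 0.17, edgeR adjusted p = 0.0184) and again at 14 days (0.69 ± 0.18, 0.0220), with all libraries at both times above all sham libraries. The first call was lost without 3-day replicate 2 or 3 (edgeR adjusted p 0.0561 to 0.0926), and the second without any 1 library at 14 days (0.0557 to 0.103). Ngly1, the enzyme that removes sugars from NFE2L1 and so activates it, fell at 3 days (log2 fold change -1.05 ± 0.24, edgeR adjusted p = 0.00709), a call held on leaving out each library in turn. It was at 58.9, 60.4 and 83.4 CPM in the sham libraries, 39.4, 28.8 and 29.6 at 3 days, 40.4, 73.1 and 44.3 at 7 days and 46.3, 45.6 and 45.0 at 14 days. The gene of the activator and that of its activating enzyme thus differed from sham in opposite directions at 3 days.

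Mafk, a small Maf partner of NFE2L1, rose at 3, 7 and 14 days by 1.36 ± 0.35, 1.66 ± 0.35 and 1.23 ± 0.36 (edgeR adjusted p = 0.0147, 0.0108 and 0.0396). It was low throughout, at 3.78, 2.06 and 2.80 CPM in the sham libraries, 9.34, 5.92 and 7.49 at 3 days, 11.1, 8.10 and 8.69 at 7 days and 7.23, 7.95 and 5.57 at 14 days. Keap1, the adaptor that restrains the related factor NFE2L2, rose at 3 days by 1.18 ± 0.34 and at 7 days by 1.18 ± 0.34 (edgeR adjusted p = 0.0237 and 0.0402). Mafg (0.80 ± 0.23, edgeR adjusted p = 0.0400) and Maff (1.16 ± 0.33, 0.0413), the other small Maf genes, rose at 7 days. On leaving out single libraries, Mafk was lost at 3 days without 3-day replicate 1 (edgeR adjusted p 0.0570), and at 14 days without sham replicates 3 and 4, 3-day replicate 3 and each 14-day library (0.0525 to 0.129). Keap1 was lost at 3 days without any 1 library at 3 days (0.0521 to 0.0776). The 7-day calls of Keap1, Mafg and Maff were lost on leaving out any 1 of 10, 10 and 11 of the 12 libraries (0.0510 to 0.105, 0.0568 to 0.145 and 0.0507 to 0.139). Sham replicate 4 was among these for Keap1 and Mafg, and for Maff it was the library whose removal kept the call.

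Of 13 enzymes and shuttles that work on the proteasome, 3 fell at 3 days. Akirin2, which together with Ipo9 brings proteasomes into the nucleus, was at 189.7, 102 and 114 CPM in the sham libraries, 66.1, 59.2 and 51.9 at 3 days, 88.0, 125 and 80.6 at 7 days and 73.8, 79.7 and 70.8 at 14 days. It fell at 3 days (log2 fold change -1.20 ± 0.23, edgeR adjusted p = 0.00267) and at 14 days (-0.86 ± 0.23, 0.0292), and rose from 3 to 7 days by 0.73 ± 0.23 (0.0496). The call at 3 days was kept without each library in turn. The 14-day call was lost without sham replicate 2 or any 1 library at 14 days (0.0858 to 0.126). The 3-to-7-day call was lost without 8 of the 12 libraries, all but sham replicates 2, 3 and 4 and 7-day replicate 4 (0.0735 to 0.196). Ubqln2, a shuttle for ubiquitinated proteins, fell at 3 days (-1.18 ± 0.28, edgeR adjusted p = 0.00937), a call kept without each library. Txnl1, a proteasome-bound thioredoxin, also fell (-0.76 ± 0.22, edgeR adjusted p = 0.0259), lost without sham replicate 4 or any 1 library at 3 days (0.0537 to 0.0816). Ubqln4, a shuttle like Ubqln2, was lower at 14 days than at 3 days (-0.62 ± 0.18, edgeR adjusted p = 0.049996) and than at 7 days (-0.73 ± 0.18, 0.0483), and Ipo9 lower than at 3 days (-0.51 ± 0.15, 0.0449). Both Ubqln4 calls were lost on leaving out any 1 of 10 of the 12 libraries (0.0572 to 0.216 and 0.0607 to 0.216), sham replicates 2 and 4 excepted, and that of Ipo9 on leaving out any 1 of 8 (0.0623 to 0.199).

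Of the 4 activators and 1 inhibitor, the inhibitor gene Psmf1 fell at 3 days (-0.87 ± 0.20, edgeR adjusted p = 0.00669), kept without each library in turn. It was at 45.1, 55.8 and 71.9 CPM in the sham libraries, 33.5, 31.7 and 28.9 at 3 days, 35.0, 38.9 and 42.0 at 7 days and 46.1, 51.2 and 48.3 at 14 days. All 6 libraries at 3 and 7 days lay below all sham libraries. Psme4, an activator found mostly in nuclei, fell at 14 days (-0.67 ± 0.20, edgeR adjusted p = 0.0471), lost without 9 of the 12 libraries, sham replicate 4 among them (0.0552 to 0.152). The interferon-induced activator genes Psme1 and Psme2 did not pass in any pairwise comparison. Psme2 passed the test of any difference between the 4 groups (edgeR adjusted p = 0.0365), a call lost on leaving out any 1 of the 9 libraries from injured cord (0.0512 to 0.110). It was at 20.3, 14.9 and 3.92 CPM in the sham libraries, 11.8, 10.9 and 14.1 at 3 days, 28.7, 24.7 and 27.9 at 7 days and 7.99, 12.9 and 8.69 at 14 days, and its 7-day libraries lay above all others. Psme2 counts may include reads of the near-copy Psme2b.

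Of 9 genes of the segregase p97 and its cofactors, Nploc4 rose (0.77 ± 0.24, edgeR adjusted p = 0.0359) and Faf1 fell (-0.71 ± 0.22, 0.0372) at 3 days. Both calls were lost on leaving out any 1 library at 3 or 14 days. That of Nploc4 was also lost without sham replicate 3 or 4 (0.0591 to 0.111 in all), and that of Faf1 without sham replicate 2 (0.0508 to 0.139). Of 6 ubiquitin and E1 enzyme genes 0 passed against sham. Uba1, the main ubiquitin-activating enzyme, had a value of -0.24 ± 0.18 at 3 days (edgeR adjusted p = 0.387). Rps27a, which encodes ubiquitin fused to a ribosomal protein, rose from 3 to 7 days by 1.19 ± 0.34 (edgeR adjusted p = 0.0316), lost without any 1 library at 3 days or 7-day replicates 1 or 3 (0.0686 to 0.130). Its counts may hold reads of its many copies. Neither of the 2 cap subunits outside the rule passed: Adrm1, a ubiquitin receptor, had 0.66 ± 0.28 at 3 days (edgeR adjusted p = 0.107) and 0.71 ± 0.28 at 7 days (0.124), and Shfm1 had -0.66 ± 0.34 and -0.21 ± 0.33 (0.176 and 0.723). None of 5 core assembly factors passed, with Pomp at 0.05 ± 0.16 at 3 days (0.858) and Psmg2 at -0.77 ± 0.43 (0.224).

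Of the 3 immunoproteasome genes, Psmb9 rose at 7 days against sham by 1.20 ± 0.35 (edgeR adjusted p = 0.0450), and 0 of 3 passed at 3 or 14 days. It was at 24.5, 28.3 and 7.56 CPM in the sham libraries, 15.9, 23.1 and 15.2 at 3 days, 44.0, 39.3 and 56.6 at 7 days and 20.0, 21.0 and 26.7 at 14 days. The 7-day libraries lay above all others, and the call against sham was lost on leaving out any 1 of 10 of the 12 libraries, sham replicate 4 among them (0.0539 to 0.148). Psmb9 also rose from 3 to 7 days by 1.37 ± 0.35 (edgeR adjusted p = 0.0209), lost without 3-day replicates 1 or 3 or 7-day replicates 1 or 4 (0.0576 to 0.114).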

How the data were processed

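Nuclear RNA of GFP-bearing nuclei was amplified by single-primer isothermal amplification (Ovation V2) and sequenced in 12 libraries, per the labels' protocols. The deposited table of raw counts per Ensembl gene was made by the authors with featureCounts 1.4.6-p3 on GRCm38, per the submitters' processing notes; no source used here gives the aligner or strand setting. The authors' RPKM equal count over gene length and library total, to a relative difference of 4.2e-14. Counts were tested with edgeR 4.0.16 (R 4.3.3; TMM, filterByExpr, quasi-likelihood, 1 model over 4 groups, Benjamini-Hochberg, threshold 0.05) on 18451 genes holding 99.6% of counts (common biological coefficient of variation 0.271). The step was tested on simulated data: with 200 of 18451 genes changed in the 3-day libraries, the test recovered 22% of those changed 2-fold and 71% of those changed 4-fold. Alternatives used DESeq2 1.42.0, limma 3.58.1 on log2 RPKM (pseudocounts 1 and 0.1), other filters and scalings, a replicate term and libraries left out. Nothing says that replicates came from separate experiments, so p-values measure the spread between these libraries. Members and lists were chosen with earlier results of these data known. Per-library values are given for called members, the highest and lowest RPKM of each subcomplex and Psmb5, Psmb6 and Psmb7; further genes so shown were chosen after their values were seen. From each pathway list, up to 4 called genes with the smallest adjusted p in a comparison are named, or else the 2 with the highest mean CPM; 2 genes this would name are not reported here. Promoter windows (RefSeq, GRCm38.p6) were matched by symbol. Plots used matplotlib 3.10.9 in Python 3.11.15.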

Additional observations from a re-analysis of the deposited data

Results flagged for a closer look

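For 6 pairs of gene and times, the effects of injury at 2 times differed by a direct test of the difference (edgeR quasi-likelihood contrast between the times, Benjamini-Hochberg adjusted over all tested genes). None is a subunit of the constitutive proteasome. From 3 to 7 days, log2 differences were 1.19 in Rps27a, 0.73 in Akirin2 and 1.37 in Psmb9. Between 3 and 14 days they were -0.62 in Ubqln4 and -0.51 in Ipo9, and between 7 and 14 days -0.73 in Ubqln4. Each was lost on leaving out at least 4 single libraries, as given with the pathway genes.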

How the results depend on the processing

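Leaving out 1 library at a time, the number of the 35 genes called by edgeR ranged from 0 to 5 at 3 days, 0 to 1 at 7 days and 0 to 4 at 14 days against sham, 0 to 7 from 3 to 7 days, 0 to 1 from 3 to 14 days, 0 to 5 from 7 to 14 days and 0 to 8 for any difference. The highest counts came without sham replicate 4, beside 21.3%, 14.3%, 23.3%, 13.5%, 9.11% and 34.4% of all tested genes. The exception was 7 days against sham, where it came without sham replicate 2, with 3065 of all tested genes called. DESeq2 called 1 at 3 days, 2 at 7 days, 2 from 3 to 7 days, 2 from 7 to 14 days and 3 for any difference, beside 23.7%, 14.2%, 18.6%, 5.90% and 36.2% of all tested genes. With no filter on low counts there were 2 at 7 days, 1 at 14 days, 2 from 3 to 7 days, 3 from 7 to 14 days and 4 for any difference, beside 8.47%, 8.27%, 10.2%, 4.58% and 20.7% of all genes. Fits of only the 2 groups compared gave 4 from 3 to 7 days, 3 from 3 to 14 days and 5 from 7 to 14 days, beside 20.2%, 28.6% and 10.8% of all genes. For any difference, median-ratio size factors, the stricter filter and limma at either pseudocount gave 0. The cause was not tested.

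The labels do not say what the replicate numbers mean. Over 13 pairs of libraries with the same number, the correlation of deviations from the group means was -0.298 to 0.0693. Deviations from a mean of 3 libraries are tied to each other, so these values cannot decide whether same-numbered libraries were handled together. With a replicate block, 1 gene was called at 7 days, 5 from 3 to 7 days, 6 from 7 to 14 days and 6 for any difference, beside 8.52%, 17.8%, 8.71% and 26.2% of all genes. The cap sum moved by more than 1 SD to 223 RPKM at 3 days and 222 at 14 days without the chaperones and tissue-restricted genes, which makes it smaller by construction, and to 219.8 at 14 days with TMM-adjusted totals. Of the values of single genes under an alternative, 1053 kept direction and side of the threshold, 289 no longer passed, 64 newly passed and 0 reversed.

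Depth limits the low genes: Psmb5 had 9 reads in sham replicate 4. The simulation changed 200 genes and gave 97 calls at 3 days, beside 3695 in the data. Its cut-off on unadjusted p was therefore stricter, so its recovery of 2-fold changes cannot be carried over to the proteasome genes. Their 95% intervals against sham lay wholly within 2-fold for 23, 26 and 23 genes at 3, 7 and 14 days. A gene that did not pass is still not shown to be unchanged, since smaller differences remain within these intervals.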
